A study of Aspergillus niger with 6 samples.

Results

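In all, 9 genes of the filamentous fungus Aspergillus niger carry an RGS or a G-alpha domain, and their transcript levels are described here in mycelium with and without the gene rpnR. They were found by domain name in the authors' Pfam annotation, as 9 of 11910 genes, of which 5 have an RGS domain and 4 a G-alpha domain. The 2 groups are the control strain MA234.1 and a strain in which rpnR is deleted (ΔrpnR), and the labels give no further alleles for either. Both were grown for 16 h at 30 °C on glucose and then for 4 h on 25 mM xylose before RNA was taken for Illumina sequencing. The labels number 3 libraries per strain, whereas the design text speaks of samples in duplicate, and nothing says whether the deletion strain is more than 1 transformant.

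The G-alpha protein is the subunit of a heterotrimeric G protein that binds GTP, and it passes signals from receptors in the cell membrane to enzymes such as adenylate cyclase. RGS proteins (regulators of G protein signalling) speed up the hydrolysis of that GTP and so switch the signal off. In Aspergillus nidulans the RGS protein FlbA acts on the G-alpha protein FadA, and its loss gives colonies that keep growing as mycelium, make no spores and lyse. The title of the series places rpnR, a predicted transcription factor gene, under the control of FlbA. The comparison here concerns the level of FlbA-type and related genes when rpnR itself is missing.

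None of the 9 genes was called changed. The files hold 1 value per gene and strain, the authors' FPKM (fragments scaled by the length of the transcript and by the number of mapped fragments), so no replicate error can be given for any level or difference below. A gene was called at a q-value under 0.05 in the authors' deposited table, as 6.54% of the 9234 tested genes were, 3.29% higher and 3.25% lower in ΔrpnR. Of the 9 genes 8 were tested and 0 called, with q-values from 0.476 to 0.977 in the authors' deposited table. The count was also 0 at a q under 0.01, which 2.59% of tested genes passed, and by the authors' own flag, which 5.46% carried. At such a background, no call among 8 genes does not set the family apart from other genes. The median log2 ratio of the 8 (ΔrpnR over control, with 1 FPKM added to each value) was -0.14, against 0.02 over all tested genes. The unadjusted p, bounded from the q-values, was under 0.05 for 0 of the 8, against 18.1% of all tested genes. Their summed level was 426.1 FPKM in the control and 423.0 FPKM in ΔrpnR. In these bulk samples fewer cells of a kind and less RNA per cell cannot be told apart.

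**Figure D1:**
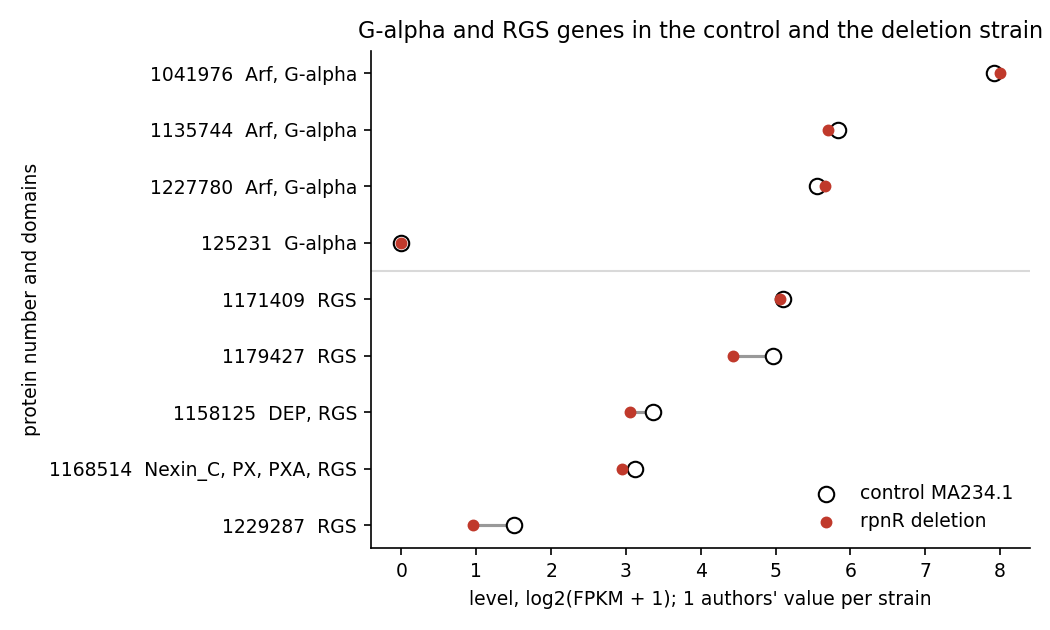
Levels of the 9 genes on the log2(FPKM + 1) axis, with open circles for the control and red dots for the deletion strain, 1 authors' value each and no error bars because the table used holds no value per library. All 5 RGS genes have their red dot to the left of the open circle, by 0.05 to 0.54 on the log2 scale, while the G-alpha dots lie within 0.13 of each other.

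Among the G-alpha genes, 1 stood far above the others in level. Protein 1041976, whose KEGG product name is the alpha subunit of an inhibitory-type G protein, G(i), was at 242.0 FPKM in the control and 254.4 FPKM in ΔrpnR. It supplied 70.4% of the summed G-alpha FPKM in the control and 71.6% in ΔrpnR, and its level was at percentile 93.5 of tested genes in the control. Its log2 ratio was 0.07 with a q of 0.974 in the authors' deposited table, and the sign turned when both strains were scaled to the same summed FPKM (-0.0022).

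The next G-alpha genes in level, 1135744 and 1227780, lay close to each other. Protein 1135744 was at 55.80 FPKM in the control and 51.01 FPKM in ΔrpnR, a log2 ratio of -0.13 (q = 0.942 in the authors' deposited table). Protein 1227780 was at 45.94 and 49.76 FPKM, a log2 ratio of 0.11 (q = 0.949 in the same table). Their order was the same in both strains, but without an error neither this order nor the small opposite differences can be separated from measurement noise. The file gives neither gene a KEGG product, and which of the G-alpha genes corresponds to FadA of A. nidulans is not recorded in it.

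The remaining G-alpha gene, 125231, was listed at 0 in both strains and was not tested. It was 1 of 667 genes of the table listed so. Its product name in KEGG is the alpha subunit of the G(q) type, which in animals activates phospholipase C. It was also the only G-alpha gene of the 4 without an additional match to the Arf domain. That domain marks small GTPases of vesicle traffic, and G-alpha proteins share its GTP-binding fold.

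The FlbA-type gene, the 1 gene that joins an RGS to a DEP domain, was expressed at a low level in both strains. DEP domains tether RGS proteins to membranes or receptors, and the yeast regulator Sst2 has the same pair of domains. Protein 1158125 was at 9.289 FPKM in the control and 7.284 FPKM in ΔrpnR, or 78.4% of the control. The log2 ratio was -0.31, with a q of 0.755 in the authors' deposited table. Its control level was at percentile 33.1 of tested genes, where the median gene had 17.7 FPKM. Among 2809 other tested genes with a mean within 2-fold of it, 181 (6.44%) were called, and the smallest fall that was called had a log2 ratio of -0.95. A difference of the size seen for the FlbA-type gene was thus smaller than any fall called at its level.

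Of the 3 genes with an RGS domain alone, 2 made up most of the RGS transcripts. Protein 1171409, with 3 predicted membrane-spanning segments, was at 33.43 FPKM in the control and 32.35 FPKM in ΔrpnR. That log2 ratio of -0.05 was the smallest of the family (q = 0.977 in the authors' deposited table). Protein 1179427, with none, was at 30.15 and 20.52 FPKM, or 68.0% of the control.

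The log2 ratio of 1179427 was -0.53, and its q of 0.476 was the lowest of the family in the authors' deposited table. The unadjusted p recovered from the q-values was 0.129, so it did not pass 0.05 without adjustment either. In absolute size its ratio was at percentile 69.2 of all tested genes. At its level, 204 of 3162 other genes (6.45%) were called, the mildest fall among them at -0.98. Because of this gene the levels of 1171409 and 1179427, which were near each other in the control, lay further apart in ΔrpnR. Together with the other RGS genes their shares of the summed RGS FPKM went from 40.6% to 47.7% for 1171409 and from 36.6% to 30.2% for 1179427.

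The third of these genes, 1229287, was barely detected, at 1.835 FPKM in the control and 0.9493 FPKM in ΔrpnR. It has 6 predicted membrane-spanning segments and an RGS domain. The receptor-like regulator RGS1 of Arabidopsis also has both features, but their order and the number of segments were not compared. The log2 ratio of 1229287, -0.54, had the largest absolute size of the family, and its q was 0.526 in the authors' deposited table. The ratio depended on the pseudocount and was -0.88 with 0.1 in place of 1. Only 7.88% of tested genes had a control level as low as this or lower.

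The last RGS gene, 1168514, combines the RGS domain with PXA, PX and Nexin_C domains and 2 predicted membrane-spanning segments. The yeast protein Mdm1, which ties the endoplasmic reticulum to the vacuole, is built from these domains, and PX domains bind phosphoinositides. Levels were 7.664 FPKM in the control and 6.741 FPKM in ΔrpnR, a log2 ratio of -0.16 (q = 0.901 in the authors' deposited table). The gene 1157110 has the PXA, PX and Nexin_C domains but no RGS match, and was at 19.14 and 20.63 FPKM. It had a log2 ratio of 0.10 and was not called.

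As a group the RGS genes had values below the control in 5 of 5 cases, with a median log2 ratio of -0.31. The other settings add no support for this direction, because none of them could turn a ratio below the control. A pseudocount cannot change a sign, and centring (by 0.02) and equal summed FPKM both lower every ratio. The order of the RGS levels was the same in both strains. The G-alpha genes lay below the control in 1 of 3 tested cases, with a median of 0.07, and in 2 of 3 with equal summed FPKM. Over all tested genes 48.7% of values lay below the control. No test of this direction was made, since the members were grouped with the results known and no RGS gene was called on its own. Summed RGS levels were 82.37 FPKM in the control and 67.84 FPKM in ΔrpnR, or 82.4% of the control, and 1179427 contributed most of that difference. Summed G-alpha levels were 343.7 and 355.2 FPKM. The ratio of summed G-alpha to summed RGS transcripts was therefore 4.17 in the control and 5.24 in ΔrpnR, given as a description without an error.

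**Figure D2:**
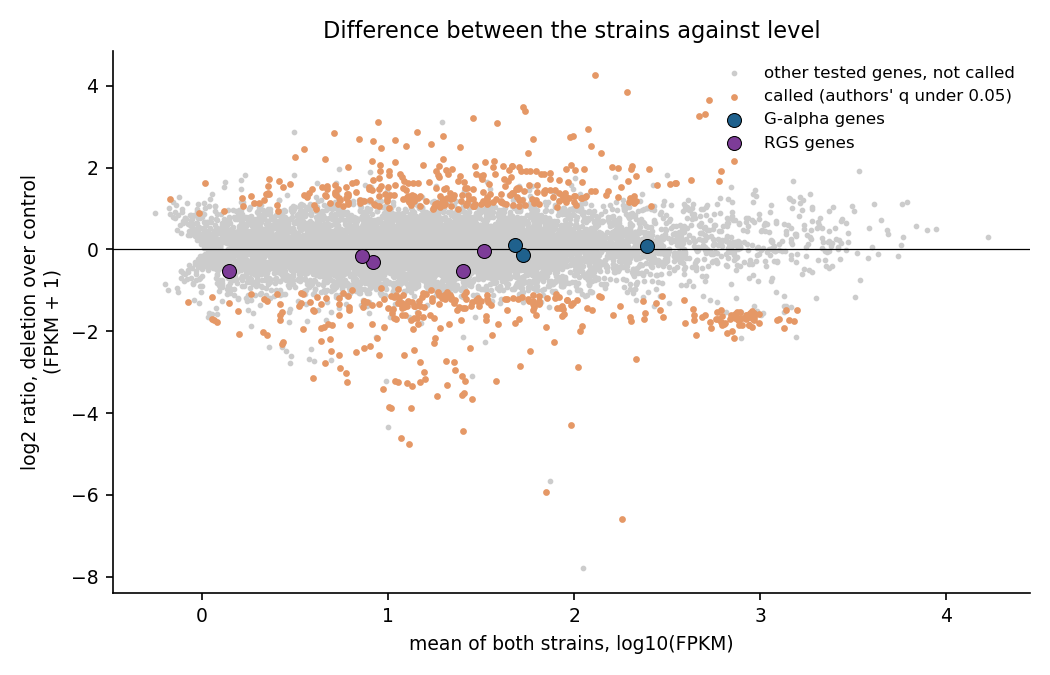
Log2 ratio of ΔrpnR over control, with 1 FPKM added to each value, against the mean level of each tested gene on a log10 axis, with called genes in orange, G-alpha genes in blue and RGS genes in purple. The 8 tested members lie between -0.54 and 0.11, inside the grey band of genes that were not called.

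In annotation the 9 genes had little in common beyond the domains and Gene Ontology terms for G protein signalling. Such terms were attached to all 9, and 2 had a KEGG product, both G-alpha genes. Predicted membrane-spanning segments were given for 3, all of them RGS genes. None was marked as secreted, as a transcription factor, as a peptidase or as part of a secondary metabolism cluster.

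Other genes were matched by domain and product name in 7 lists with 94 genes, which reach beyond G protein signalling. Among them, 35 have Ras, Arf or Miro domains, 14 have PX, PXA or Nexin_C domains and 3 have a DEP domain. The shares below are therefore not those of the G protein pathway alone. Of the 94 genes 86 were tested. Of these, 2 were called lower and 0 higher, or 2.33% against the background of 6.54%. Their median log2 ratio was 0.04. At a bounded unadjusted p under 0.05 there were 5, of which 4 lay lower and 1 higher, or 5.81% against 18.1% of all tested genes. The lists were written with earlier results of these data known, and they describe the surroundings of the RGS and G-alpha genes.

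Receptors come first in the pathway. Of 21 genes with receptor domains 14 were tested, 1 was called lower and 0 higher, and the median log2 ratio was 0.06. The called gene, 1179045, has the Git3 domains of glucose-sensing receptors known from fission yeast. It fell from 4.204 to 1.049 FPKM, a log2 ratio of -1.34 with a q of 0.0335 in the authors' deposited table. Its low level kept it under the minimum of 10 in the authors' own flag for changed genes.

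The 3 other genes with Git3 domains were not called, and 1 of them was not tested. Protein 1203545 was at 9.898 and 14.66 FPKM. Protein 1089442 had 5.470 FPKM in the control and 5.453 FPKM in ΔrpnR, next to no difference. The most abundant gene of the list was 52722, at 84.81 and 87.93 FPKM, which has the PQ-loop domain. That domain is also found in lysosomal transporters such as cystinosin, and 12 of the 21 genes carry it. Of those 12, 8 were tested and 0 called. Their log2 ratios ran from -0.90 to 0.73, with 5 above the control and 3 below. Apart from these 12, 6 of the other 9 were tested, with the same 1 call.

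The partners of G-alpha in the heterotrimer were not called. The G-gamma gene 46690 was at 600.3 FPKM in the control and 568.4 FPKM in ΔrpnR. The G-beta gene 1038112 was at 167.3 and 163.1 FPKM. In both strains the order of levels was thus G-gamma, then the G(i)-type alpha gene 1041976, then G-beta. Some proteins with the Phosducin domain assist the folding of G-beta with G-gamma. Genes with this domain were at 42.64 and 33.96 FPKM for 1144065, and 21.73 and 28.56 FPKM for 1147424.

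The gene that did fall in this list of 5 was 1142510, annotated as RACK1. Its product is a WD40 protein related in sequence to G-beta that sits on the small ribosomal subunit, and in yeast its counterpart Asc1 can bind a G-alpha protein. It fell from 762.9 to 249.0 FPKM, a log2 ratio of -1.61 with a q of 0.0202 in the authors' deposited table. The G-beta gene 1038112, also a WD40 gene, had a log2 ratio of -0.04, and the difference between these genes was not tested.

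Downstream of G-alpha, none of the 8 tested genes of the cyclic AMP list was called (median log2 ratio -0.08). Adenylate cyclase (1223346), which makes cyclic AMP and here carries a G-alpha binding domain, was at 16.02 and 14.86 FPKM. The regulatory subunit of protein kinase A (1091608), which cyclic AMP releases from the kinase, was at 69.83 and 91.12 FPKM. Phosphodiesterases, which break cyclic AMP down, were at 33.46 and 30.04 FPKM for 1204916, and 5.559 and 7.430 FPKM for 1102302. The list's most abundant gene, 1117334, was at 124.4 and 93.26 FPKM and is a sulfate transporter with a cyclic nucleotide binding domain. Proteins 1115631, with a Patatin domain, and 1087031, with an F-box domain, carry that binding domain too. The count and median are thus not of pathway genes alone. No gene with a protein kinase domain is in the list.

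None of the 7 MAP kinase cascade genes, all tested, was called. MAP kinases relay signals through chains of phosphorylation. Of the 7 values 4 lay above the control and 3 below, with a median log2 ratio of 0.16.

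The last 3 lists, of Ras-like GTPases and of genes with the accessory domains found beside RGS, had no calls. Of 35 genes with Ras, Arf or Miro domains, most of them small GTPases, 0 were called, with ratios from -0.74 to 0.51 and a median of 0.04. The most abundant was ARF1 (1147989), at 758.5 and 768.2 FPKM. Of 3 genes with a DEP and no RGS domain 0 were called, the most abundant being 53268 at 45.74 and 45.78 FPKM. Of 14 genes with PX, PXA or Nexin_C domains and no RGS, 0 were called (median 0.11), the most abundant being 1176612 at 80.06 and 74.71 FPKM.

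**Figure D3:**
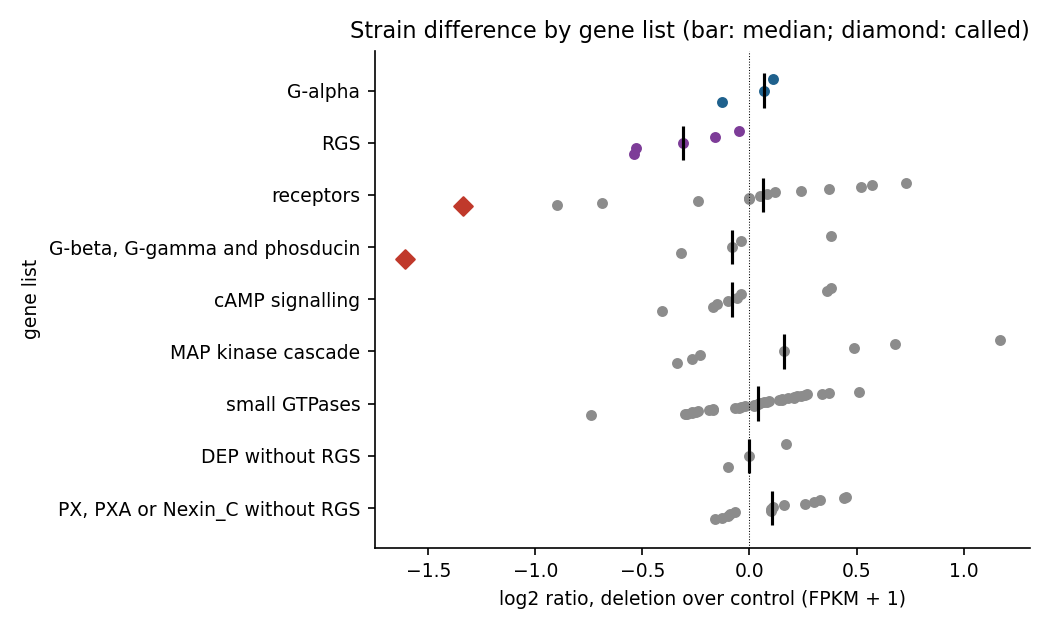
Log2 ratio of ΔrpnR over control, with 1 FPKM added to each value, for each tested G-alpha, RGS and other listed gene. Bars mark each list's median and red diamonds mark called genes. The diamonds are 1179045 among the receptors (-1.34) and 1142510 (RACK1) in the list of G-beta, G-gamma and phosducin genes (-1.61).

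For the series as a whole, the summed FPKM of all genes was 828095 in the control and 872090 in ΔrpnR, a log2 difference of 0.07 that is as large as the ratio of 1041976. No gene carries the symbol rpnR, so the deletion was not checked through the targeted gene. The spore regulators brlA, abaA and wetA have no symbol in the file. Of the 8 hydrophobin genes hypA to hypH, used as markers of spore-bearing structures, 7 were tested, 2 were called lower and 0 higher. Over all tested genes 3.25% were called lower and 3.29% higher. The summed level of the 8 was 230 FPKM in the control and 43.3 FPKM in ΔrpnR. Neither a difference in spore-bearing structures nor their part in the values of the RGS and G-alpha genes was tested.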

How the data were processed

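RNA from mycelium of 2 strains was measured by Illumina sequencing. Per the submitters' processing notes, Cuffdiff 2.2.1, Cufflinks, TopHat2, Trimmomatic and CASAVA 1.8.3 were used, with no roles stated. Which build and annotation served is not given in the sources used here. These deposited expression values, 1 per gene and strain, are read as the authors' FPKM because Cuffdiff writes that unit. The q-value of the comparison is the authors' deposited one, and 2676 genes with a q of 1 (highest value 7.50 FPKM) were taken as not tested. Depth per library is unknown, so no interval was computed, and a planned fit per library could not be made.

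Log2 ratios used a pseudocount of 1 FPKM. Unadjusted p-values were bounded from the q-values, as q times its last rank over 9234 tested genes. P-values simulated for 9234 genes were adjusted by the same formula, and 100% of those with a q under 1 lay inside the bounds. That result follows from the formula and checks only the arithmetic. Whether the authors adjusted over exactly these genes was not tested. All members were named. Of other lists, the called genes and the most abundant gene were named, and further genes were chosen after their values were seen. A result that this rule would name is not reported here. The members and lists were chosen with earlier results of these data known. Python 3.11.15 and pandas 2.3.3 were used.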

Additional observations from a re-analysis of the deposited data

How the results depend on the processing

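The count of 0 called RGS and G-alpha genes was 0 at a q under 0.01, by the authors' own flag, with a mean of at least 5 FPKM and at a bounded unadjusted p under 0.05. Their median log2 ratio of -0.14 was -0.16 with a pseudocount of 0.1, -0.16 when centred on all tested genes, -0.22 with equal summed FPKM and -0.13 when genes with a mean under 5 FPKM were left out. Of 24 single ratios of members under 3 of these settings, 23 kept their sign, and that of 1041976 turned to -0.0022 with equal sums. Most of the 24 could not have turned, so this count is no measure of robustness. A pseudocount cannot change a sign, and centring and equal sums here only lower a ratio. Only 1041976 and 1227780, the tested members above the control, could turn. The ratio of 1227780 was 0.10 when centred and 0.04 with equal sums. The 2 calls in the lists of other genes were 0 at a q under 0.01 and 1 by the authors' flag. They were 1 with a mean of at least 5 FPKM and 5 at the bounded unadjusted p. These settings were added after the data were seen. With equal sums the ratio turned to -0.06 for ARF1 (1147989), -0.02 for 52722 and -0.07 for 53268, and the latter was -0.01 when centred. The medians of the receptors and small GTPases were -0.01 and -0.02 with equal sums. No paired analysis was possible because the deposited table holds 1 value per strain and none per library, and for the same reason leaving out single replicates was not run. Depth is unknown, which limits what can be said of genes near 0, such as 1229287 and 125231.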

Other observations

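Of 6 other genes with a Gene Ontology term that names G protein signalling, chosen after the values were seen, 5 were tested and 0 called. The one with the largest ratio was 1100946, with a diacylglycerol kinase catalytic domain, at 38.96 and 65.34 FPKM (q = 0.241 in the authors' deposited table).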
